A study of Arabidopsis thaliana with 9 samples.

Results

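Transcripts of the gibberellin receptors GID1A, GID1B and GID1C were examined in rosette leaves of Arabidopsis thaliana (Columbia background) on Affymetrix ATH1 arrays. The members were the probe sets annotated to 1 of these genes and to no other. There were 3, of 22746 probe sets tested and 13513 with 1 listed gene: 259302_at for GID1A (AT3G05120), 251200_at for GID1B (AT3G63010) and 246782_at for GID1C (AT5G27320).

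Gibberellins are growth hormones that are bound inside the cell by the soluble GID1 proteins, which are related to plant carboxylesterases. Hormone-bound GID1 takes hold of the DELLA proteins, repressors of growth, and the F-box protein SLY1 then marks them for degradation. The 3 Arabidopsis receptors overlap in function, and plants that lack all of them are severe dwarfs that do not respond to gibberellin.

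The study asked which genes respond to overexpression of DVL4, a member of the DEVIL family of small peptides. The group DVL4 dex was a transgenic line whose DVL4 coding sequence sits in the GVG vector, which is switched on by dexamethasone (dex), treated with 30 um dex. The group empty vector dex was a line with the same vector and no coding sequence, given the same dex. The group DVL4 mock was the DVL4 line after mock treatment. Each group had 3 arrays, each array from the largest rosette leaf of 20 plants pooled, taken 10 h after treatment from vegetative plants with 6 expanded leaves that grew at 22 °C under 16 h days. Each construct was represented by a single line, and mock-treated empty vector leaves were not analysed here. Dex treatment and line therefore cannot be told apart between the empty vector dex and DVL4 mock groups. Between DVL4 dex and DVL4 mock, dex itself and induction of DVL4 cannot be told apart. Between DVL4 dex and empty vector dex, the same holds for line and induction of DVL4. The DVL4 transcript had no named probe set and was not analysed here, so its induction was not checked.

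The intensities were similar in scale on all arrays, with array medians between 75.4 and 84.1. The leaf markers RCA, PRK and LHCB4.1 were brighter than 99.8% of probe sets or more and lay between 7295.3 and 11254.1 on every array. The root markers EXPA7, EXPA18 and PYK10 lay between 13.2 and 57.3, and the meristem marker CLV3 between 1.6 and 14.4. The arrays did differ in a control measure. The ratio of 5′ to 3′ signal of the dap control transcript was 0.278 and 0.262 on DVL4 dex replicates 1 and 2 and 0.228 on empty vector dex replicate 1, against 0.601 to 1.325 on the other 6 arrays. The same 3 arrays had the lowest ratios for Arabidopsis actin, from 0.226 to 0.33 against 0.422 to 0.612. The GAPDH control did not set them apart. Its ratio was 0.992, 0.945 and 1.012 on them in the order above, 0.974 on empty vector dex replicate 3, and 1.139 to 1.276 on the remaining arrays. The 3 arrays with a dap ratio below 0.5 are called low-5′ arrays here. None of them was a DVL4 mock array. EXPA7 was higher in DVL4 dex than in mock leaves by 1.03 ± 0.30 on the log2 scale (limma adjusted p = 0.0326), and by 0.70 with low-5′ status in the fit (limma adjusted p = 0.183), while EXPA18 was at 0.18 ± 0.27 and PYK10 at -0.39 ± 0.40. The markers above and FAMA, a guard cell gene, were the 8 of 19 listed markers with a named probe set. FAMA had its 3 lowest values, 86.0, 86.8 and 105.4, on these arrays, against 119.8 to 163.4 on the others. Its change in DVL4 dex against mock was -0.53 ± 0.18 (limma adjusted p = 0.0601), or -0.26 with low-5′ status in the fit (limma adjusted p = 0.32). The part of guard cell transcripts in the receptor values was not tested.

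GID1A, the brightest of the receptor probe sets at the 74.1st percentile of all probe sets, had intensities of 197.9, 199.8 and 252.4 in DVL4 dex leaves, 195.1, 317.7 and 351.5 in empty vector dex leaves, and 350.6, 274.1 and 270.7 in DVL4 mock leaves. All DVL4 dex arrays lay below all DVL4 mock arrays, while the empty vector arrays spanned both groups. The means were 216.7 ± 30.9 in DVL4 dex, 288.1 ± 82.3 in empty vector dex and 298.5 ± 45.2 in DVL4 mock leaves (SD, n = 3 each). Against mock the log2 change in DVL4 dex was -0.46 ± 0.21 (SE), with a 95% interval from -0.94 to 0.02, and it did not pass (limma adjusted p = 0.157 over all probe sets tested). A lower DVL4 dex group without overlap was seen for 20.0% of all probe sets in that comparison. Against the empty vector leaves, both with dex, the change was -0.38 ± 0.21 (interval -0.85 to 0.10, limma adjusted p = 0.332). Between empty vector dex and DVL4 mock leaves it was -0.09 ± 0.21 (interval -0.56 to 0.39, limma adjusted p = 0.87). In bulk leaves, fewer cells of a type and less RNA per cell cannot be told apart.

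**Figure D1:**
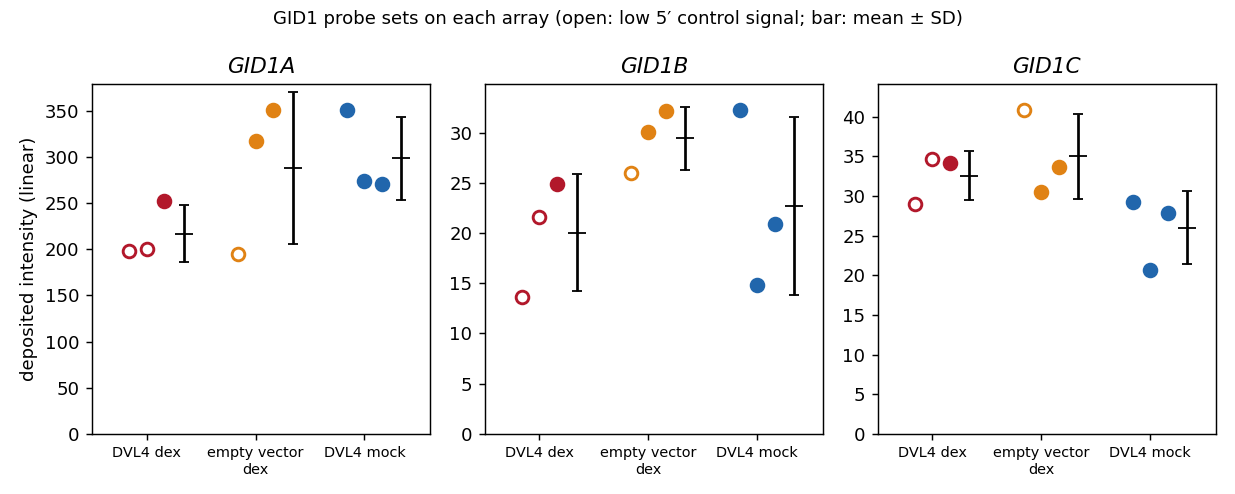
Deposited intensity (linear scale) of the 3 GID1 probe sets on each array, by group. Points are arrays, open points are the low-5′ arrays, and bars give the mean ± SD of 3 arrays. The 3 open points of GID1A, at 195.1 to 199.8, lie below all its filled points.

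The 3 lowest GID1A values were those of the 3 low-5′ arrays, which averaged 197.6 ± 2.33, against 302.8 ± 43.1 on the other 6 (SD). The highest of the 3 was 199.8 and the lowest of the other 6 was 252.4. Of all probe sets, 5.64% had their 3 lowest values on these arrays. Within the low-5′ arrays the DVL4 dex values of 197.9 and 199.8 stood beside 195.1 in the empty vector array, a log2 change of 0.03 ± 0.07 (SE). Among the other arrays the single DVL4 dex value of 252.4 was the lowest of 6, and the log2 changes were -0.405 ± 0.191 against the empty vector and -0.232 ± 0.18 against mock leaves. In these fits the group with 1 array was assumed to vary like the others.

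With low-5′ status in the fit, GID1A was lower on low-5′ arrays by -0.56 ± 0.14 on the log2 scale at equal group, which did not pass (limma adjusted p = 0.0802), and 1.88% of all probe sets passed that test. The change in DVL4 dex against mock was then -0.09 ± 0.16 (limma adjusted p = 0.77), and against the empty vector -0.19 ± 0.14 (limma adjusted p = 0.452). Without empty vector dex replicate 1, a low-5′ array, GID1A passed as lower in DVL4 dex leaves. The change against mock had the same size and a smaller error, -0.46 ± 0.14 (limma adjusted p = 0.0402), and that against the empty vector was -0.63 ± 0.15 (limma adjusted p = 0.0375), with the low-5′ arrays that remained all in the DVL4 dex group. The part of the 5′ signal in the GID1A values was not tested beyond these fits.

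**Figure D2:**
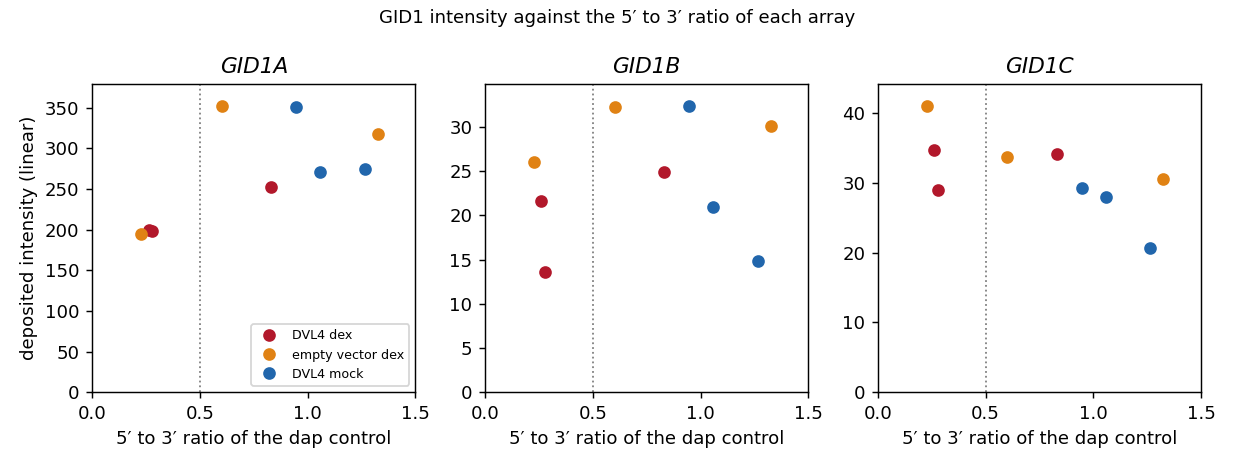
Deposited intensity of each GID1 probe set (linear scale) against the 5′ to 3′ ratio of the dap control on the same array, with arrays as points coloured by group and the 0.5 ratio as a dotted line. The 3 arrays left of the line hold the 3 lowest GID1A values, the lowest GID1B value (13.6) and the highest GID1C value (40.9).

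GID1B was dim, at the 28.1st percentile of all probe sets, and lay under its array's median on all 9 arrays. It had intensities of 13.6, 21.6 and 24.9 in DVL4 dex leaves, 26.0, 30.1 and 32.2 in empty vector dex leaves, and 32.3, 14.8 and 20.9 in DVL4 mock leaves. The DVL4 dex arrays all lay below the empty vector arrays, and the DVL4 mock arrays spanned both groups. A lower DVL4 dex group without overlap with the empty vector group was seen for 12.9% of all probe sets. The means were 20.02 ± 5.84 in DVL4 dex, 29.42 ± 3.18 in empty vector dex and 22.66 ± 8.88 in DVL4 mock leaves (SD, n = 3 each). The log2 change in DVL4 dex was -0.60 ± 0.33 (SE) against the empty vector, with an interval from -1.33 to 0.14 (limma adjusted p = 0.315). Against mock it was -0.15 ± 0.33 (interval -0.88 to 0.58, limma adjusted p = 0.794), and it turned to 0.12 with low-5′ status in the fit. Empty vector dex leaves differed from DVL4 mock leaves by 0.44 ± 0.33 (interval -0.29 to 1.18, limma adjusted p = 0.499). No change passed, and the widest spread, an SD of 39.2% of the mean, was that of the DVL4 mock arrays.

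GID1C, at the 33.1st percentile, also lay under its array's median on all 9 arrays. Its intensities were 29.0, 34.7 and 34.1 in DVL4 dex leaves, 40.9, 30.5 and 33.6 in empty vector dex leaves, and 29.3, 20.7 and 27.9 in DVL4 mock leaves. The empty vector arrays all lay above the mock arrays, a pattern of 14.5% of all probe sets, and the DVL4 dex arrays overlapped with both groups. The means were 32.58 ± 3.13 in DVL4 dex, 34.99 ± 5.37 in empty vector dex and 25.98 ± 4.62 in DVL4 mock leaves (SD, n = 3 each). The log2 change in DVL4 dex was 0.34 ± 0.22 (SE) against mock (interval -0.14 to 0.82, limma adjusted p = 0.308) and -0.10 ± 0.22 against the empty vector (interval -0.58 to 0.39, limma adjusted p = 0.845). Empty vector dex leaves differed from DVL4 mock leaves by 0.44 ± 0.22 (interval -0.05 to 0.92, limma adjusted p = 0.288).

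By limma, 0 of the 3 receptor genes passed in each of the 3 comparisons, and 0 had an unadjusted p below 0.05. Over all probe sets, 23.7% passed in DVL4 dex against mock, 10.2% in DVL4 dex against the empty vector and 6.21% in empty vector dex against DVL4 mock. At these standard errors, a call against mock needed a change of 1.58-fold for GID1A, 2.02-fold for GID1B and 1.59-fold for GID1C. In the comparison with the empty vector it needed 1.7-fold, 2.27-fold and 1.72-fold in the same order. These sizes hold for the standard errors of this fit only. By group means, GID1A and GID1B were lowest in DVL4 dex leaves and GID1C was lowest in DVL4 mock leaves, but no 2 neighbouring groups in these orders differed past the threshold.

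**Figure D3:**
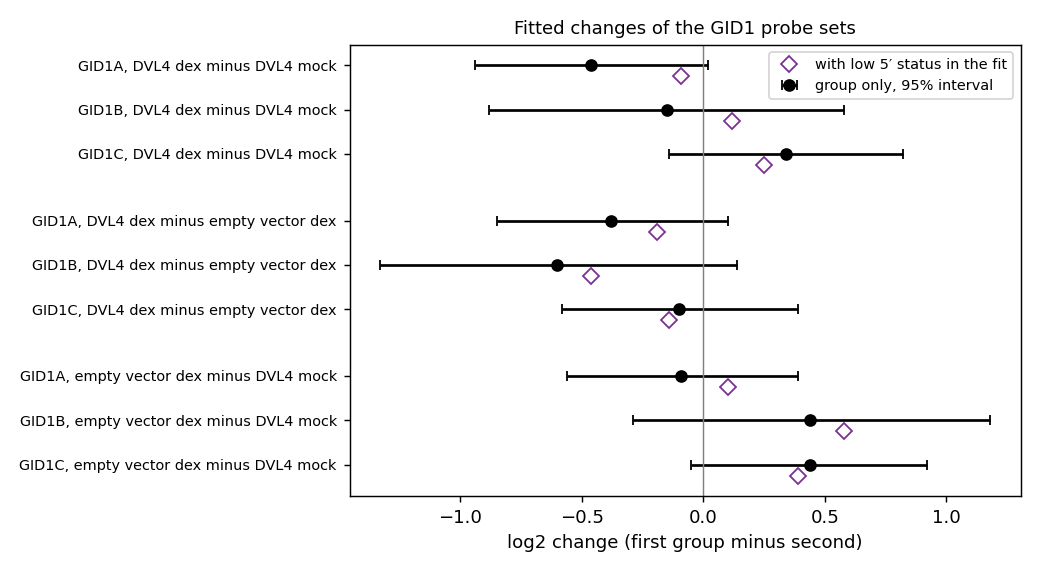
Fitted log2 changes of the 3 GID1 probe sets in the 3 comparisons (x axis, first group minus second). Black points and bars are the fit on group with its 95% interval, and open diamonds are the fit with low-5′ status added. All 9 intervals include 0, and the GID1A change against mock moves to -0.09 with low-5′ status.

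The array-to-array patterns of the receptors differed. The log2 values of GID1A and GID1B had a Pearson r of 0.585 (Spearman rho 0.583), those of GID1B and GID1C 0.541 (rho 0.433), and those of GID1A and GID1C -0.321 (rho -0.350). These are descriptions over 9 arrays that share 3 groups. From the lowest to the highest array, GID1A differed 1.8-fold, GID1B 2.38-fold and GID1C 1.98-fold.

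The genes most like each receptor were the 5 with the highest Pearson r of log2 values over the 9 arrays. They were picked from 6045 named probe sets brighter than the median of all. For GID1A they were psaJ, which encodes a small photosystem I subunit in the plastid (r 0.961, rho 0.950), AT4G33080 (r 0.959), AT5G25560 (r 0.955), AT2G14080 (r 0.953) and AT5G48970 (r 0.941). For GID1B they were AT1G06240 (r 0.898), AT1G51350 (r 0.863), AT5G43960 (r 0.858), AT3G19950 (r 0.857) and RCA, the activase of Rubisco (r 0.844). For GID1C they were AT2G42950 (r 0.964), AT3G13560 (r 0.962), AT5G24890 (r 0.942), AT1G12730 (r 0.937) and AT5G08750 (r 0.930). All 5 genes given for GID1A had their 3 lowest values on the low-5′ arrays, as GID1A itself did. This pattern was seen for 5.64% of all probe sets. For GID1B and for GID1C, which lack the pattern themselves, 0 of 5 did. The genes were picked for likeness on these same arrays. These counts therefore follow largely from the pick and are no separate result. At equal group AT4G33080 and AT2G14080 passed as lower on low-5′ arrays (limma adjusted p = 0.0451 and 0.023), while psaJ, AT5G25560 and AT5G48970 did not pass. Over all probe sets 1.88% passed that test. Because the 5 were picked on the same arrays, these p-values give no independent support. The part of low-5′ status in these likenesses was not tested.

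Other genes of the gibberellin pathway were read from a list of 54, of which 9 had a named probe set. The sub-lists of synthesis, inactivation and DELLA genes had none, so the receptors' direct partners, the DELLA proteins, were not analysed here. Of the 9, 1 was higher and 4 were lower in DVL4 dex than in mock leaves by limma, and 4 did not pass, beside 23.7% of all probe sets called. Without DVL4 dex replicate 1 or 2, or DVL4 mock replicate 2 or 3, the number called was 2. Without the low-5′ arrays it was 1. In the comparison with the empty vector 2 were lower and 7 did not pass, beside 10.2% called over all probe sets. The number was 1 without DVL4 dex replicate 1 or 2, empty vector dex replicate 1 or 2, or DVL4 mock replicate 2, and 0 without the low-5′ arrays. In empty vector dex against DVL4 mock leaves 1 was higher, 1 lower and 7 did not pass, beside 6.21% called over all, with 1 call left without empty vector dex replicate 1 or 3 or DVL4 mock replicate 2 or 3. The median log2 change of the 9 was 0.10 against mock and -0.07 against the empty vector, and that of all probe sets 0.01 and 0.00.

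Of the 4 measured signalling partners of the receptors, none passed in any comparison. SLY1, the F-box subunit that recognises DELLA proteins, had a log2 change in DVL4 dex of 0.14 ± 0.14 (SE) against mock and 0.00 ± 0.14 against the empty vector. SNE (SLY2), its close relative, had 0.10 ± 0.23 and 0.00 ± 0.23. SPY and SEC, which attach sugars to DELLA proteins, had 0.28 ± 0.12 and 0.31 ± 0.10 against mock, with all DVL4 dex arrays above all mock arrays in both (limma adjusted p = 0.143 and 0.0531). A higher DVL4 dex group without overlap with mock was seen for 23.0% of all probe sets. With low-5′ status in the fit SPY passed at 0.42 (limma adjusted p = 0.0453) and SEC stayed at 0.31 (limma adjusted p = 0.128).

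The 3 measured transport genes were all lower in DVL4 dex than in mock leaves. NPF3.1, which encodes a transporter of gibberellin, had intensities of 459.3, 460.9 and 591.4 in DVL4 dex leaves, 847.6, 888.5 and 944.3 in empty vector dex leaves, and 1037.8, 862.8 and 1174.2 in DVL4 mock leaves. Its DVL4 dex arrays lay below all arrays of both other groups. Over all probe sets, 20.0% had a DVL4 dex group wholly below mock and 12.9% one wholly below the empty vector. The share below both was not counted. It fell by 1.02 ± 0.13 on the log2 scale against mock (limma adjusted p = 0.00052) and by 0.84 ± 0.13 against the empty vector (limma adjusted p = 0.00439). With low-5′ status in the fit these changes were -0.87 and -0.76, both past the threshold. Without the low-5′ arrays, with 1 DVL4 dex array left, they were -0.782 and -0.631 and neither passed.

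SWEET13 and SWEET14 encode sugar transporters that can also carry gibberellin. SWEET13 fell by 0.66 ± 0.18 against mock (limma adjusted p = 0.0249), with 149.4, 128.4 and 149.5 in DVL4 dex leaves against 200.0, 253.4 and 222.3 in mock leaves, and was at -0.07 ± 0.18 against the empty vector. It lost the call against mock without DVL4 dex replicate 1 or 2 and without DVL4 mock replicate 2 or 3. The call was also lost with values under the 25th percentile of all values raised to it. Without the low-5′ arrays, with 1 DVL4 dex array left, the SWEET13 change against mock was -0.585. SWEET14 was dim, with 18.4, 13.5 and 33.4 in DVL4 dex leaves against 42.6, 35.9 and 48.5 in mock leaves. It fell by 1.06 ± 0.33 against mock (limma adjusted p = 0.0458), a call lost in 13 of 18 other settings, among them leaving out any array but DVL4 dex replicate 3 and empty vector dex replicate 2, and was at -0.65 ± 0.33 against the empty vector.

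In the sub-list of gibberellin-responsive genes, 2 of 8 were measured, and they changed in opposite directions against mock. The list does not record in which direction each gene responds to gibberellin, and this was not tested. AT1G22690, to which the gene table gives no name, had 342.5, 395.3 and 569.6 in DVL4 dex leaves, 845.1, 708.6 and 619.9 in empty vector dex leaves, and 1440.4, 1645.5 and 1752.2 in DVL4 mock leaves. The 3 groups did not overlap. A DVL4 dex group wholly below mock was seen for 20.0% of all probe sets, and one wholly below the empty vector for 12.9%. The share with all 3 groups apart was not counted. It fell by 1.92 ± 0.18 against mock (limma adjusted p = 9.94e-05) and by 0.76 ± 0.18 against the empty vector (limma adjusted p = 0.0285), and empty vector dex leaves were lower than DVL4 mock leaves by -1.16 ± 0.18 (limma adjusted p = 0.00687). The call against mock was lost in 0 of 19 other settings. The call against the empty vector was lost in 10 of 20 other settings, among them leaving out DVL4 dex replicate 1 or 2, empty vector dex replicate 1 or 2, or DVL4 mock replicate 2. Without the low-5′ arrays the change was -0.22.

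XERICO, a RING finger gene that raises abscisic acid levels, rose by 0.53 ± 0.14 against mock (limma adjusted p = 0.0233). Its intensities were 350.4, 390.9 and 333.8 in DVL4 dex leaves, 448.9, 397.9 and 382.8 in empty vector dex leaves, and 305.3, 243.3 and 205.3 in DVL4 mock leaves. Both dex groups lay above mock, and empty vector dex leaves were higher than DVL4 mock leaves by 0.72 ± 0.14 (limma adjusted p = 0.018). Of all probe sets, 23.0% had DVL4 dex wholly above mock and 14.5% had empty vector dex wholly above mock. The share with both was not counted. It was at -0.19 ± 0.14 against the empty vector. It lost the call against mock with low-5′ status in the fit (0.41, limma adjusted p = 0.123), without the low-5′ arrays, and without DVL4 dex replicate 1 or 2 or DVL4 mock replicate 2 or 3. Its call between the controls was lost without empty vector dex replicate 1 or 3, DVL4 mock replicate 2 or 3, or the low-5′ arrays. It was also lost with only the 2 groups compared in the fit.

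**Figure D4:**
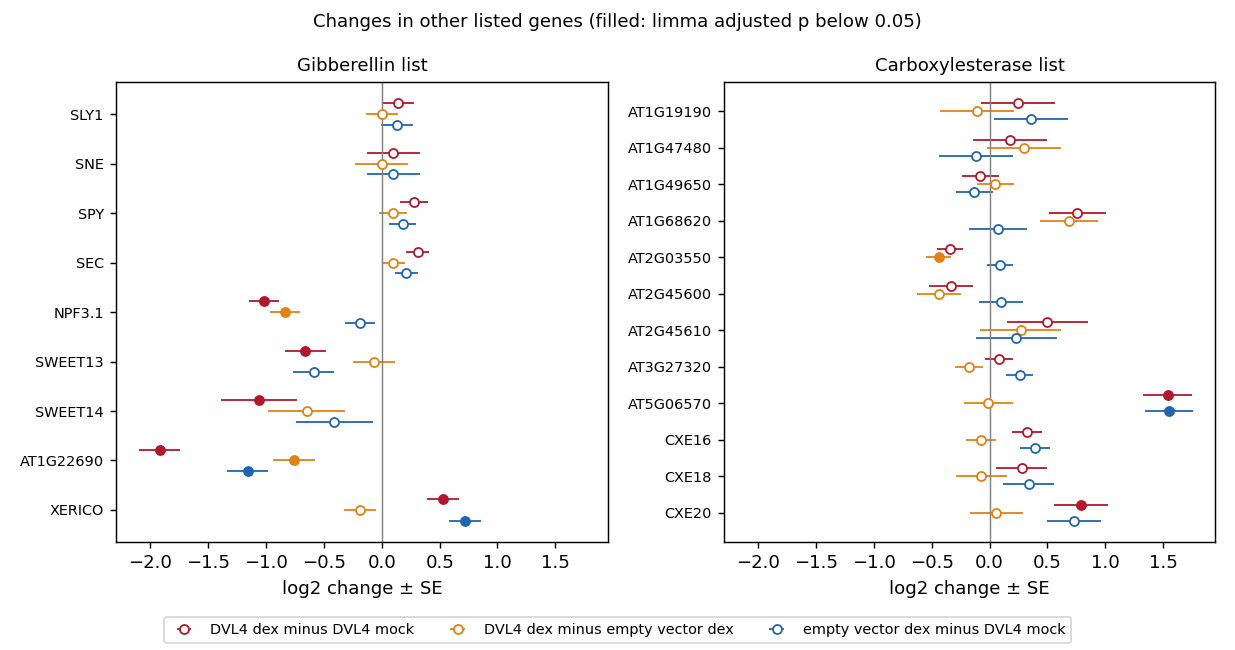
Log2 changes ± SE (x axis) of the 9 measured genes of the gibberellin list and the 12 of the carboxylesterase list, coloured by comparison and filled where the limma adjusted p was below 0.05. AT1G22690 and NPF3.1 lie left of 0 and AT5G06570 and CXE20 right of it in DVL4 dex against mock.

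The GID1 proteins belong to the plant carboxylesterase family, and 12 of 17 other loci listed for that family were measured, 3 of them named in the gene table. Against mock 2 were higher in DVL4 dex leaves, 0 lower and 10 did not pass, beside 23.7% called over all probe sets. AT5G06570 rose by 1.54 ± 0.21 (limma adjusted p = 0.0008), with 49.3, 54.5 and 45.9 in DVL4 dex leaves, 40.0, 62.2 and 50.5 in empty vector dex leaves, and 19.5, 16.8 and 15.2 in DVL4 mock leaves. Both dex groups lay above mock by similar amounts, and the change against the empty vector was -0.01 ± 0.21. DVL4 dex lay wholly above mock for 23.0% of all probe sets and empty vector dex for 14.5%. The share with both was not counted. Its rise in empty vector dex over DVL4 mock leaves was 1.55 ± 0.21 (limma adjusted p = 0.00411), the only call of the family there, beside 6.21% called over all probe sets. Both calls of AT5G06570 were kept in all 18 other settings run for each.

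CXE20 rose by 0.79 ± 0.23 against mock (limma adjusted p = 0.0321), with 83.9, 64.5 and 69.0 in DVL4 dex leaves against 47.5, 37.0 and 41.3 in mock leaves, and was at 0.06 ± 0.23 against the empty vector. It lost the call in 9 of 18 other settings, among them low-5′ status in the fit (0.51), and leaving out each DVL4 dex or each DVL4 mock array. Without empty vector dex replicate 1 the family had 4 calls against mock in place of 2. Against the empty vector, where 10.2% of all probe sets were called, AT2G03550 was the 1 called locus and was lower by -0.44 ± 0.11 (limma adjusted p = 0.0367), with 664.3, 694.8 and 768.8 in DVL4 dex leaves against 817.9, 1070.5 and 1003.2 in empty vector leaves. It lost the call in 14 of 20 other settings, among them leaving out any array but DVL4 dex replicate 3 and empty vector dex replicate 1, and it passed with low-5′ status in the fit (limma adjusted p = 0.0299). AT1G68620, dim at the 23.8th percentile, lay higher in DVL4 dex leaves than on all other arrays, at 22.0 to 34.4. It did not pass (0.76 ± 0.25 against mock, limma adjusted p = 0.0556). A higher DVL4 dex group without overlap with mock was seen for 23.0% of all probe sets. The share higher than both other groups was not counted. CXE16 was at 0.39 ± 0.13 in empty vector dex against DVL4 mock leaves (limma adjusted p = 0.106). AT2G45600 was at -0.44 ± 0.19 in DVL4 dex against the empty vector (limma adjusted p = 0.192), and neither passed. The family's median log2 change was 0.26 against mock and -0.04 against the empty vector.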

How the data were processed

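The authors profiled total RNA on Affymetrix ATH1 arrays and analysed it in dChip, per the labels' series text; which dChip version, model and normalization they used is not given in the sources used here. The deposited table holds linear intensity, as its values show, for 22810 probe sets on 9 arrays. Groups came from the sample titles. The 5th percentile of all values together (4.92) served as a floor before log2 was taken, and 64 control probe sets were left out. Arrays were not normalized again. Genes were named from the platform's gene table (14016 probe sets listed, 13513 with 1 gene) and symbols updated through a RefSeq table of TAIR10.1, which matched 13436. Protein and promoter sequences were not used here. Differences were tested with limma 3.58.1 in R 4.3.3 (1 linear model of group over all 9 arrays, eBayes with an intensity trend), with 2-sided p-values adjusted by Benjamini-Hochberg over 22746 probe sets and a threshold of 0.05. The precision is limited by 3 arrays a group. The fit was tested on simulated data, with changes placed only in probe sets above the median mean and no low-5′ effect. It therefore does not cover dim probe sets such as GID1B and GID1C, or differences between low-5′ and other arrays. Plots used matplotlib 3.10.9 in Python 3.11.15.

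The lists came from general knowledge of the genes. The members, lists, tests and alternatives were chosen with earlier results of these data known; the fit within the low-5′ arrays was added after seeing the data. Named genes were the members, every list gene that passed in a comparison, up to 3 more per sub-list by smallest p, and the 5 most like each member. SNE was named beyond this rule, so that all measured signalling partners are given. In the carboxylesterase list CXE16, AT1G68620 and AT2G45600 were named for their p. Replicate numbers entered the main fit in no way.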

Additional observations from a re-analysis of the deposited data

How the results depend on the processing

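No call of a receptor gene was made in the fit as designed. Under up to 20 other settings the 9 receptor changes passed in 2 instances, both for GID1A without empty vector dex replicate 1 (-0.461 against mock and -0.634 against the empty vector). Leaving out 1 array at a time gave, in DVL4 dex against mock, -0.575 to -0.339 for GID1A, -0.421 to 0.141 for GID1B and 0.183 to 0.433 for GID1C. Against the empty vector it gave -0.634 to -0.21, -0.777 to -0.338 and -0.191 to 0.022. For empty vector dex minus DVL4 mock it gave -0.251 to 0.173, 0.174 to 0.737 and 0.28 to 0.53. The sign of an uncalled change turned in 11 instances. With low-5′ status in the fit GID1B against mock was 0.117 and GID1A between the controls 0.101. Without the 3 low-5′ arrays GID1B against mock was 0.211, GID1C against the empty vector 0.091 and GID1A between the controls 0.173. Within the low-5′ arrays GID1A against the empty vector was 0.027. The cause of these turns was not tested.

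With the floor at the 25th percentile (20.08) the gibberellin list had 3 calls against mock and 1 against the empty vector, and the carboxylesterase list 1 and 0. The carboxylesterase list had 1 call against mock among probe sets above the median mean and with low-5′ status in the fit, and between the controls 0 above that median, where fewer loci were tested. Against the empty vector the carboxylesterase list had 0 calls with centred arrays, with trend=FALSE, with only the 2 groups compared and with the replicate block. The gibberellin list there had 1 with trend=FALSE and with only the 2 groups compared, and 1 between the controls with only the 2 groups compared. Without the low-5′ arrays the gibberellin list had 1, 0 and 1 calls against mock, against the empty vector and between the controls, and the carboxylesterase list 1 against mock and 0 against the empty vector. Within the low-5′ arrays, 3 in all, both lists had 0 calls against the empty vector, where a fit this small says nothing on whether changes held. Leaving out 1 array gave 2 to 6 and 1 to 4 calls against mock, 1 to 2 and 0 to 2 against the empty vector, and 1 to 2 and 1 between the controls, for the gibberellin and carboxylesterase lists in that order.

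The replicate numbers were checked: deviations of same-numbered arrays correlated between -0.148 and 0.14, over 0.1 in 2 of 9 pairs, so the numbers were not used as pairs. With the replicate block GID1A against mock was -0.461 (limma adjusted p = 0.173). Dim signal limits GID1B most, with 2 of 9 values under the 25th percentile of all values.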
